A study of Mus musculus with 39 samples.

Results

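The oxRRBS libraries of wild-type (WT) mouse embryonic stem cells (mESC) were compared between retinoic acid (RA) treatment and the naive state, for 5-methylcytosine (5mC) alone. The unit is a tile, a 200 bp stretch of the genome with 1 deposited 5mC value per group, and the members are all tiles with a value for WT cells in both states. These were 214665 of the 377684 tiles of the table, or 56.8%. A further 37349 tiles had values only in the set taken as RA-treated, 31757 only in the set taken as naive, and 93913 in neither.

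The RA-treated group had 4 WT oxRRBS libraries and the naive group 5. All mESC came from embryos at day 2.5 out of crosses between heterozygous 129s-Trp53tm2Tyj/J mice, and were established on irradiated feeder cells in 2i medium, so the WT cells are the p53-intact offspring of a p53 mutant strain. Naive cells were cultured in 2i+LIF, a medium with a pair of kinase inhibitors and the cytokine LIF that keeps mESC undifferentiated. For differentiation, feeders were removed, the cells were seeded on gelatin and held in differentiation medium for 16 hours, and 1 uM RA was then renewed each day for 4 days. RA treatment thus came together with loss of feeders and a change of medium, and these cannot be told apart from RA itself. The sources used here do not say how many lines the libraries represent or what their sex was. RRBS libraries of the same states (5 for RA-treated and 5 for naive WT cells) and the libraries of p53-null cells, grown and treated the same way (4 RRBS and 4 oxRRBS libraries for RA-treated, 3 and 3 for naive cells), serve below for comparison.

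Methylation of cytosine at CpG sites is set by the de novo enzymes Dnmt3a and Dnmt3b and copied at replication by Dnmt1. The TET enzymes oxidise 5mC to 5-hydroxymethylcytosine (5hmC), a step on the way to its removal. Reduced representation bisulfite sequencing (RRBS) reads fragments cut by the enzyme MspI, which favours CpG-rich DNA. Ordinary bisulfite treatment leaves both marks read as methylated, which is called total methylation here. The oxidative form (oxRRBS) removes the 5hmC signal first and so measures 5mC alone. Naive mESC in 2i are known for low methylation, and leaving that state is known to bring remethylation of most of the genome, with CpG islands kept free of it.

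The headings of the tile table give genotype and mark but no cell state. Its second set of columns was taken as RA-treated and its first as naive, and this was checked against the table of single CpGs, whose headings do name the state. In 47820 tiles that hold 1 listed CpG, 15.8% of the RA-treated WT 5mC values lay within 0.51 points of the WT RA column with the suffix Hx, and at most 8.56% within that distance of any other column. For naive WT 5mC the share was 25% with the naive Hx column and at most 14.4% with any other. All 8 tile columns of 5mC and total methylation had their smallest median distance to the CpG column of the same genotype, state and mark. No source used here defines the suffix Hx, and it is read below as the 5mC readout because of this match. The authors combined the libraries of a group into 1 value, without coverage. Depth is therefore unknown, the levels carry no SD, and no difference below was tested against the spread between libraries.

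WT cells had far more 5mC after RA. The mean over the 214665 tiles was 40.7% in RA-treated and 23.7% in naive cells, a difference of 17.0 percentage points. The median tile was at 45.5% after RA and 19.2% in naive cells, and the median difference was 15.1 points with quartiles of 0.914 and 29.7 points. At 25 points or more, 70022 tiles were higher after RA, 32.6% of those compared, and 1844 were lower, 0.859%. A difference of at least 10 points was seen upward in 58.7% and downward in 3.57% of tiles, and one of at least 50 points in 4.79% and 0.0634%. Tiles are not replicates, so these shares describe the pooled groups. The mean depends on which sequence is counted. It was 3.78 points over the 30584 tiles with at least 3 listed CpGs, and 6.80 points over the 330387 single CpGs, most of which lie in CpG-dense, unmethylated sequence.

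The whole distribution of levels was displaced upward, apart from a peak of unmethylated tiles that was present in both states. Tiles under 5% made up 19.6% of the total after RA and 31.5% in naive cells. The share at 5% to 20% was 8.50% after RA against 19.4%, and that at 20% to 40% was 15.6% against 24.6%. Above 40% the order turned. The classes at 40% to 60% held 26.8% of tiles after RA against 16.8% in naive cells, at 60% to 80% they held 24.5% against 6.48%, and at 80% or more 5.08% against 1.27%. Full methylation stayed rare in RA-treated cells, where the 90th percentile tile was at 74.1%, against 56.2% in naive cells.

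**Figure D1:**
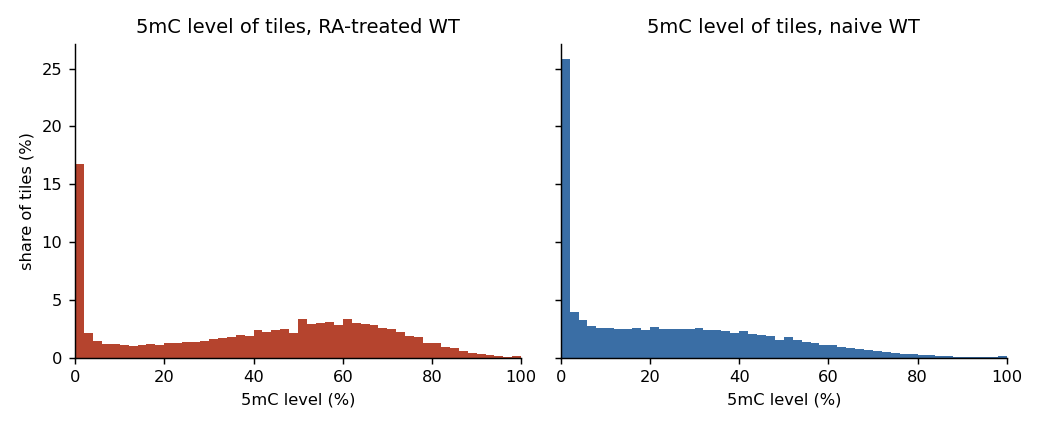
Share of the 214665 tiles (vertical axis, percent) by 5mC level (horizontal axis, percent, steps of 2 points) in RA-treated WT cells on the left and naive WT cells on the right. RA-treated cells show a broad hump with a median of 45.5%, where naive cells slope down from a median of 19.2%, and both have a peak next to 0.

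Moves from empty to full were rare. Of the 67519 tiles under 5% in naive cells, 61.2% were also under 5% after RA, and 2.16% stood at 60% or more. Of the 36100 tiles at 40% to 60% in naive cells, 50.3% were at 60% to 80% after RA and 32.9% were in the same class as before. These classes are cut from the naive 5mC value itself, so any error in that value enters both the class and the difference. For the 1457 tiles with 5mC under 5% in naive cells and at least 60% after RA, median total methylation, measured in the RRBS libraries, was 60.7% after RA and 31.3% in naive cells.

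The size of the difference depended on where a tile started. To keep the 5mC value from defining its own class, tiles were sorted by total methylation in naive WT cells. The 52077 tiles at 20% to 40% had the largest mean difference, 25.1 points, with 5mC at 49.5% after RA and 24.3% in naive cells. At 5% to 20% the means were 30.4% and 9.28% over 31952 tiles, and at 40% to 60% they were 61.4% and 39.9% over 53611 tiles. The difference narrowed at the top, to 15 points for tiles at 60% to 80% (69.4% after RA, 54.4% in naive cells) and 9.68 points for tiles at 80% or more (76.0% and 66.3%). Total methylation at 80% or more was lower after RA, 77.0% against 84.8%, and at 60% to 80% it was 70.9% and 67.3%. The naive total value cuts these classes, so its error enters that difference. Sorted by naive p53-null total methylation instead, tiles at 80% or more had 4.99 points more WT total methylation after RA. At the bottom, the 53204 tiles under 5% differed by 3.15 points, with means of 4.18% after RA and 1.03% in naive cells.

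Measured against the room left up to 100%, the difference varied little over the upper classes. It was 33.2% of the unmethylated remainder at 20% to 40%, 35.7% at 40% to 60%, 32.9% at 60% to 80% and 28.7% at 80% or more. In the 2 lower classes it was smaller, 23.3% at 5% to 20% and 3.18% under 5%. Sorting the same tiles by total methylation in naive p53-null cells, values that do not enter the WT difference, gave 31.0%, 35.3%, 34.5% and 26.4% for the 4 upper classes, and 19.2% and 2.37% for the lower ones. Whether the classes differ beyond the spread between libraries was not tested.

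**Figure D2:**
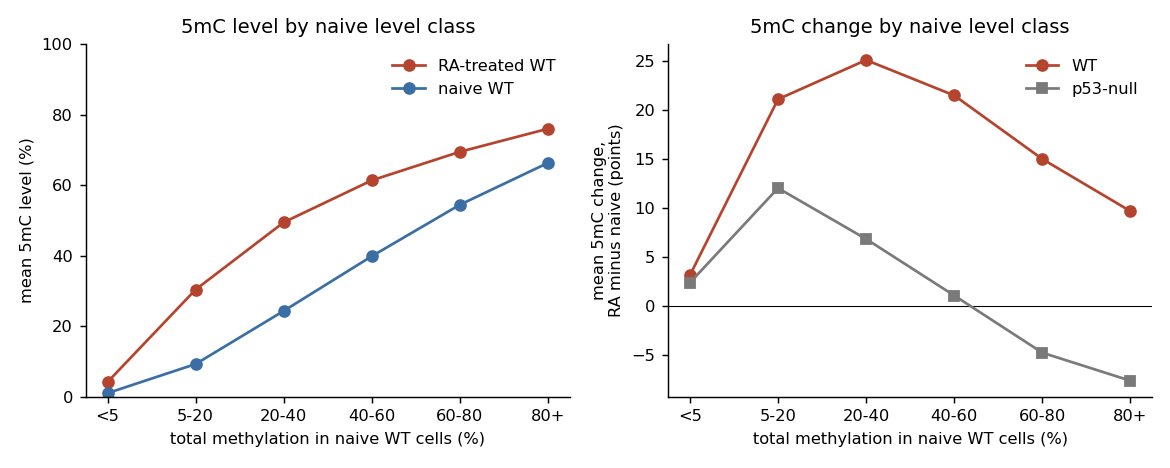
Left, mean 5mC level (percent) of WT tiles after RA and in naive cells, by class of total methylation in naive WT cells. Right, mean 5mC difference, RA-treated minus naive (percentage points), for WT and p53-null cells in the same tiles. The WT difference is above 0 in every class and largest at 20% to 40% (25.1 points), where p53-null cells differ by 6.84 points.

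The most CpG-dense tiles hardly differed between the states. Density was measured as the number of CpGs of the single-CpG table in a tile. That table does not list each CpG behind the tile values, so a tile with none of its CpGs still holds CpGs. The 6254 tiles with 9 or more listed CpGs, sequence of the CpG island kind, were at 0.362% after RA and 0.298% in naive cells. With 5 to 8 CpGs the means were 1.96% and 0.758% over 10821 tiles, and with 3 to 4 CpGs 12.2% and 4.64% over 13509 tiles. Tiles with 2 CpGs were at 26.7% and 11.5%, and tiles with 1 at 40.3% and 20.4%. The 119064 tiles with none of the listed CpGs were at 51.7% after RA and 32.2% in naive cells, a difference of 19.5 points, close to the 19.9 points of tiles with 1 CpG.

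Density and starting level go together, and the relation of the WT difference to density depended on the level class. Among tiles at 20% to 40% in naive total methylation, it was 24 points with no listed CpG, 26.9 with 1, 27.9 with 2, 28.0 with 3 to 4 and 27.8 with 5 to 8, the last over 141 tiles. At 40% to 60% it was 20.3 points with no listed CpG and 26.6 with 3 to 4. At 5% to 20% it was 21.2 points with no listed CpG, 21.7 with 1, 20.3 with 2, 19.3 with 3 to 4 and 16.7 with 5 to 8. In tiles under 5% it was 8.24 points with no listed CpG, 4.97 with 1, 2.81 with 2 and 0.0431 with 9 or more. Tiles with 3 or more listed CpGs thus had a larger difference than tiles with none at 20% to 60%, and a smaller one below 20%. Within a class, however, these tiles also differed in naive 5mC. At 20% to 40% it was 26.97% with no listed CpG and 16.55% with 3 to 4. Under 5%, tiles with no listed CpG had a naive mean of total methylation minus 5mC of -1.05 points, which no true mean can take. Error in the naive total value enters the classes, and depth is unknown. Whether density itself set this order was not tested.

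The unmethylated stretch around dense tiles ended within about 2 kb. Tiles directly beside a tile with 9 or more CpGs, 200 bp away, averaged 0.711% after RA and 0.432% in naive cells. At 1000 bp the means were 9.77% and 3.97%, and at 2000 bp they were 28.6% and 13.8%. At 5000 bp they had reached 38.3% and 18.2%, and at 10000 bp 40.1% and 19.2%. The ratio of RA-treated to naive level was 1.22-fold in dense tiles, 2.18-fold up to 600 bp away and largest in the next class, 2.25-fold over 600 and up to 2000 bp away. Farther out it was 2.03-fold up to 10000 bp, 1.91-fold up to 50000 bp and 1.65-fold beyond. Of the tiles within 600 bp of a dense tile, 0.435% were higher by at least 25 points, against 38.2% of those over 2000 and up to 10000 bp away.

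**Figure D3:**
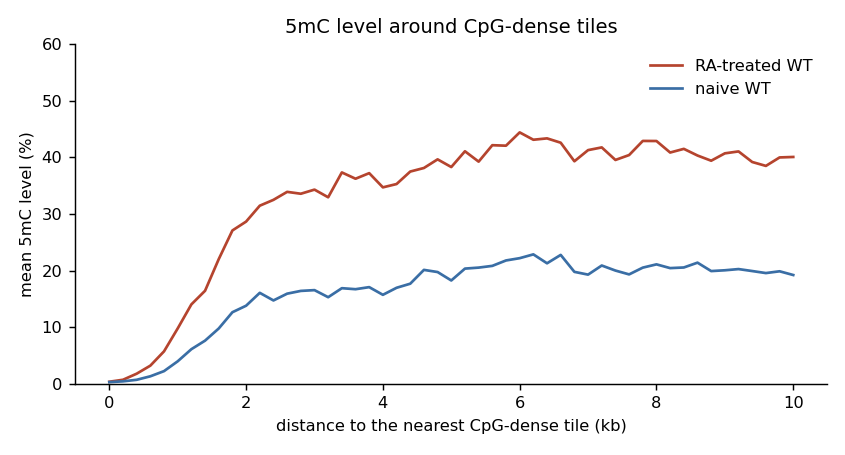
Mean 5mC level of tiles (vertical axis, percent) by distance to the nearest tile with 9 or more listed CpGs (horizontal axis, kb) in RA-treated and naive WT cells. Both lines start below 0.4% at the dense tile and separate between 0.6 and 2 kb, where they stand at 28.6% after RA and 13.8% in naive cells.

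Dense tiles with a large difference were few. Of the tiles with 9 or more CpGs, 2 (0.032%) were higher by at least 25 points, against 32.6% of all tiles. Both are given here after their values were seen. The tile on chromosome 17 (mm9 88039801 to 88040000) was at 36.5% after RA and 3.64% in naive cells, with total methylation at 39.0% and 6.30%. The tile on chromosome 8 (107117801 to 107118000) was at 34.6% after RA and 3.67% in naive cells, with total methylation at 49.7% and 22.5%. The RRBS readout was thus higher after RA in both. Among tiles with 5 to 8 CpGs, 160 (1.48%) were higher by at least 25 points. They averaged 46.3% after RA and 11.7% in naive cells, and total methylation was higher by at least 10 points in all 160, against 2.67% of the other tiles of that density and 54.6% of all tiles. None of these 160 lay within 600 bp of a dense tile, against 36.0% of the other 10661 tiles of that density. Those other tiles averaged 1.30% after RA, so the comparisons with them are mostly with unmethylated tiles.

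All 20 chromosomes with at least 1000 tiles had more 5mC after RA. Over the 19 autosomes the mean difference was 17.1 ± 0.552 points (SD over chromosomes, which describes the genome and not the libraries). The autosomal values ran from 15.6 points on chromosome 7 to 17.9 points on chromosome 8. Chromosome X stood outside that range with 12.0 points over 4296 tiles. Its RA level of 39.9% was inside the autosomal range of 37.8% to 42.7%, while its naive level of 28.0% was above the naive level of each autosome, the highest of which was 25.7%.

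**Figure D4:**
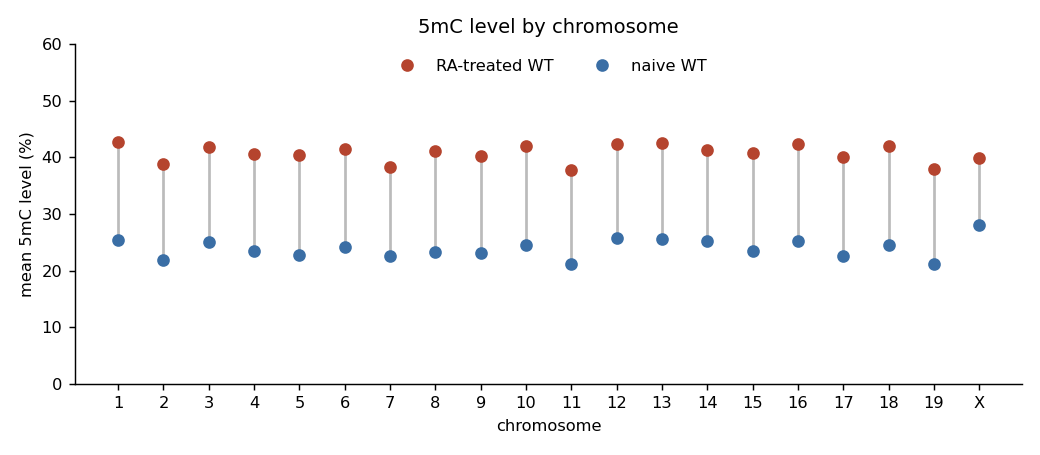
Mean 5mC level (percent) of the tiles of each of the 20 chromosomes with at least 1000 tiles, in RA-treated and naive WT cells, joined by a line. The difference is 15.6 to 17.9 points on the autosomes and 12.0 points on chromosome X, whose naive value is the highest of the 20.

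The difference on X was also the smaller one in every class from 5% upward of naive total methylation. Among tiles at 20% to 40% in naive total methylation, X tiles were at 44.6% after RA and 27.3% in naive cells, and autosomal tiles at 49.6% and 24.3%. At 40% to 60% the X means were 55.2% and 42.7%, and the autosomal means 61.5% and 39.8%. Under 5% the differences were alike, 3.33 points on X and 3.15 points on autosomes. The number of X chromosomes per cell in each library was not examined, so its part in this was not tested.

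Along the genome the higher level after RA was nearly everywhere. The tiles were averaged in windows of 1000000 bp, keeping those that hold 20 tiles or more. Mean 5mC was higher after RA in 2462 of these 2466. The median window differed by 16.6 points, and the middle of the distribution was narrow, from 11.1 points at the 10th to 21.1 points at the 90th percentile. The largest window differences were on chromosome 2 (50000001 to 51000000), at 55.9% after RA and 26.4% in naive cells over 40 tiles, and on chromosome 3 (147000001 to 148000000), at 59.2% and 30.3% over 32 tiles. Windows on chromosome 6 (33000001 to 34000000), chromosome 14 (93000001 to 94000000) and chromosome 17 (64000001 to 65000000) followed, with 28.0, 26.5 and 26.2 points.

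All 4 windows with less 5mC after RA lay on chromosome X, between 27000001 and 33000000. The lowest, from 29000001 to 30000000, was at 44.1% after RA and 46.4% in naive cells, a difference of -2.27 points over 53 tiles. The next 3 differed by -0.716, -0.651 and -0.522 points, and the fifth, from 25000001 to 26000000, by 0.926 points. Taken from 24 to 34 Mb, limits chosen after the values were seen, this stretch held 476 tiles at 44.6% after RA and 42.7% in naive cells, with total methylation at 45.7% and 47.3%. The rest of X was at 39.4% after RA and 26.1% in naive cells, so its difference of 13.2 points remained below that of each autosome.

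The 50 windows with the smallest differences were concentrated on few chromosomes. X held 19 of them, 38% against 4.14% of all windows, and chromosome 7 held 11, 22% against 5.72%. Another 6 were on chromosome 4. On chromosome 7 they included 21000001 to 22000000, at 36.3% after RA and 34.5% in naive cells, 9000001 to 10000000, at 41.5% and 39.1%, and 15000001 to 16000000, at 43.8% and 41.1%. The RA level of the 50 windows was ordinary, with a mean of 42.2% against 42.6% over all windows. What set them apart was the naive level, 38.3% against 26.2%. These windows were picked by their small difference, so the naive value is a description. The naive level of the same windows in p53-null cells, which did not enter the choice, was also high, 53.5% against 36.3% over all windows.

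**Figure D5:**
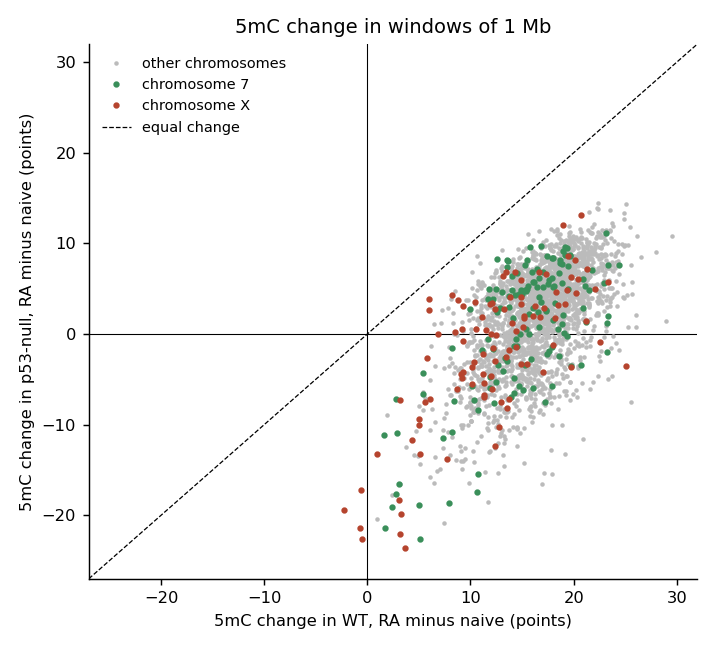
Each point is a window of 1000000 bp. The horizontal axis is the mean 5mC difference in WT cells and the vertical axis that in p53-null cells, RA-treated minus naive, in percentage points. All 2466 points lie below the line of equal change, and of the 50 windows with the smallest WT difference, many on chromosomes X and 7, 47 lie below 0 in p53-null cells.

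Tiles up to 1000 bp apart had related differences, and tiles 10000 bp apart hardly did. Distances between these were not examined. Over 90044 pairs of adjacent tiles Pearson's r was 0.54, over 13024 pairs 1000 bp apart it was 0.38, and over 6641 pairs 10000 bp apart 0.035. The tiles of a pair come from the same libraries, and adjacent ones can share reads and MspI fragments. Beside a tile higher by at least 25 points, the adjacent tile was also that much higher in 58.2% of cases, against 29.3% over all such pairs. At 1000 bp the shares were 41.4% and 19.5%, and at 10000 bp 34.7% and 32.9%. Pairs at different distances thus hold different tiles. Density and level shared by the tiles of a pair were not taken out of r.

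Total methylation of the same tiles, read in separate RRBS libraries, was also higher after RA, but by less. It averaged 42.6% in RA-treated and 29.4% in naive cells, a difference of 13.2 points. It was higher by at least 25 points in 20.3% of tiles and lower by as much in 0.27%. The protocol treats portions of pooled library either way, so the readouts may share DNA and are not independent cultures. Of the 70022 tiles with 5mC higher by at least 25 points, 94.0% had more total methylation after RA and 81.8% had at least 10 points more, against 82.5% and 54.6% of all tiles. In the single-CpG table, which gives the same oxRRBS readout, 96.1% of the 24721 such tiles with listed CpGs had an Hx mean at least 10 points higher after RA, against 45.7% of all tiles with listed CpGs. Of the 104 tiles with listed CpGs and 5mC lower by at least 25 points, 56.7% had an Hx mean at least 10 points lower, against 0.978%.

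The gap between the readouts is an estimate of 5hmC, and it was smaller after RA. Total methylation minus 5mC averaged 1.95 points in RA-treated and 5.77 points in naive cells, a difference of -3.82 points. In the 119064 tiles with no listed CpG, the estimate was 0.264 points after RA and 5.34 points in naive cells. With 1 listed CpG it was 5.41 and 9.13 points, and with 2 it was 4.86 and 6.77 points. Over all tiles, the estimate made up 4.57% of total methylation after RA and 19.6% in naive cells. Tiles with no listed CpG were 55.5% of these. At 60% to 80% and at 80% or more in naive WT total methylation, their mean estimate after RA was -0.305 and -0.281 points. A true mean cannot lie below 0. Over tiles with at least 3 listed CpGs the difference was -0.172 points. No density class of such tiles averaged more than 12.2% 5mC after RA. With 3 to 4 listed CpGs, the difference was 0.388 and 0.972 points under 5% and at 5% to 20% in naive WT total methylation. At 20% to 40% and 40% to 60% it was -4.14 and -7.87 points. These classes use a value that also enters the estimate. Sorted by total methylation in naive p53-null cells, the difference over all tiles was 0.244 points under 5% and -0.362 points at 5% to 20%. It was -4.04 points at 20% to 40% and -6.66 points at 60% to 80%. There the estimate was 1.85 points after RA and 8.52 points in naive cells. Single tiles were too imprecise to read. The estimate was at -10 points or less, a value no true level can take, in 11.3% of tiles after RA and 7.01% in naive cells. The same 5mC values enter the 5mC and the 5hmC difference with opposite signs, and the oxidation efficiency of each library was not used here, so its part in the size of either was not tested.

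Tiles with less 5mC after RA had, on average, more total methylation. The 1844 tiles lower by at least 25 points averaged 37.8% after RA and 72.4% in naive cells in 5mC, and their total methylation was 57.4% after RA and 50.1% in naive cells. Of these tiles, 33.2% had less total methylation after RA and 15.9% at least 10 points less, against 15.1% and 2.38% of all tiles. In p53-null cells 65.8% of them had less 5mC after RA, against 37.0% of all tiles. In 76.5% of them the naive 5mC value lay more than 10 points above naive total methylation, against 7.0% of all tiles. Among tiles higher by at least 25 points, the RA 5mC value lay more than 10 points above RA total methylation in 23.5%, against 11.3% of all tiles, and among those higher by at least 50 points in 45.2%. No listed CpG fell in 94.4% of the tiles lower by at least 25 points, against 55.5% of all tiles. With tiles whose 5mC exceeded total methylation by more than 10 points in either state left out, an alternative chosen after seeing the data, the share lower by at least 25 points was 0.241% in place of 0.859%. That filter uses the same 5mC values, so a smaller share follows from its construction. Of the 30584 tiles with at least 3 listed CpGs, 1906 (6.23%) were higher by at least 25 points and 1 (0.00327%) was lower. Over all tiles the shares were 32.6% and 0.859%. Median naive 5mC was 0.490% with 3 to 4 listed CpGs, 0.277% with 5 to 8 and 0.232% with 9 or more. Tiles so near 0 cannot fall by 25 points, so most of these tiles could not have shown such a decrease.

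In p53-null cells the same tiles differed by less. 5mC averaged 36.7% in RA-treated and 32.9% in naive p53-null cells, 3.75 points apart, so that the WT difference was larger by 13.2 points. With at least 3 listed CpGs per tile the WT excess was 1.49 points. No density class of such tiles averaged more than 12.2% 5mC after RA. At 5% to 20%, 20% to 40% and 40% to 60% in naive WT total methylation, the excess with 3 to 4 listed CpGs was 5.60, 12.0 and 15.8 points. With no listed CpG it was 10.5, 19.9 and 21.5 points. Over all tiles, the genotypes were 3.95 points apart after RA, WT the higher, and 9.28 points apart in naive cells, WT the lower. At least 25 points more 5mC after RA was seen in 11.3% of tiles in p53-null cells, and at least 25 points less in 5.96%. The 15844 tiles that were this much higher in both genotypes made up 22.6% of the WT list and 65.5% of the p53-null list. Of the 70022 tiles this much higher in WT cells, 3297 were lower by as much in p53-null cells. Over all 214665 tiles 12803 were, 5.96%, so the share among the 70022 was the smaller. Of the 1844 tiles this much lower in WT cells, 143 were higher by as much in p53-null cells. Over all 214665 tiles 24206 were, 11.3%, so the share among the 1844 was again the smaller.

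The genotypes differed most in tiles that were already methylated. At 40% to 60% in naive WT total methylation, the difference was 21.5 points for WT and 1.07 points for p53-null 5mC. At 60% to 80% it was 15 points for WT and -4.77 points for p53-null 5mC. Under 5% the genotypes were close, with 3.15 points for WT and 2.39 points for p53-null cells. Across the 2466 windows the WT difference was the larger in all 2466, and p53-null cells were lower after RA in 794 of them. Of the 50 windows with the smallest WT difference, 47 were lower after RA in p53-null cells. Their mean difference was 3.94 points for WT and -12.2 points for p53-null 5mC. Over all windows the 2 differences had a Pearson's r of 0.61, given as a description, since windows of 1 genome are not independent samples.

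The single tiles with the largest differences were taken from those with at least 3 listed CpGs whose total methylation was also higher by at least 25 points, 1570 tiles in all. The 10 named tiles lay on 8 chromosomes, at 64.8% to 75.8% after RA and 0% to 10.4% in naive cells. The tile on chromosome 2 at 157664001 to 157664200 was at 70.2% after RA and 1.68% in naive cells. Its total methylation was 73.6% and 17.6%, and the Hx mean of its 3 listed CpGs 63.7% and 3.67%. The tile on chromosome 9 at 48280001 to 48280200 was at 66.4% after RA and listed at 0 in naive cells, with total methylation at 72.0% and 13.7%. On chromosome 19, the tile at 57776201 to 57776400 was at 73.0% after RA and 6.03% in naive cells, and total methylation was 72.8% and 32%. The rule asked for higher total methylation, so its direction in these tiles is a description.

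The first by size, on chromosome 2 at 113980601 to 113980800, was at 75.8% after RA and 3.09% in naive cells, but its naive total methylation was 43.9%. Its 5mC difference of 72.7 points stood beside a total difference of 28.9 points. In p53-null cells 5mC was also higher after RA in all 10 named tiles, by 7.63 to 53 points, against 60.4% of all tiles and 71.6% of those higher by at least 25 points in WT cells. In 5 of the 10 the p53-null difference reached 25 points.

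Only 6 tiles met the rule for decreases, which asked for at least 3 listed CpGs and total methylation lower by at least 10 points. On chromosome 8, the tile at 123016401 to 123016600 was at 19.6% after RA and 39.1% in naive cells in 5mC, and at 27.4% and 54.2% in total methylation. In p53-null cells it was at 14.6% after RA and 54.6% in naive cells. The tile on chromosome 6 at 52111001 to 52111200 was at 6.27% and 16.2% in 5mC and at 10.2% and 26.1% in total methylation, with an Hx mean of 5.33% after RA and 21.0% in naive cells. The rule fixed the direction of 5mC and total methylation in these tiles.

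The largest of the 6, on chromosome 18 at 48668001 to 48668200, was at 33.8% after RA and 59.6% in naive cells. The Hx mean of its listed CpGs was 45.0% and 44.3%, so the single-CpG table did not show the difference. The other 3 tiles, on chromosomes 10, 12 and 14, differed by -6.99, -3.16 and -2.07 points. All 6 had less 5mC after RA in p53-null cells as well, by -0.220 to -40.1 points. The share was 37.0% over all tiles and 65.8% over those lower by at least 25 points in WT cells. These shares include tiles with no listed CpG, which the rule left out.

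The single-CpG table, in which the state is named, gave the same order. Over its 330387 CpGs the WT Hx mean was 11.8% after RA and 5.03% in naive cells. Of these CpGs, 12.9% (42771) had at least 25 points more after RA, and 0.089% (294) at least 25 points less. By naive total methylation, the 236527 CpGs under 5% averaged 0.674% after RA and 0.0478% in naive cells. The 27791 CpGs at 20% to 40% averaged 41.1% and 13.6%, a difference of 27.5 points that was again the largest of the 6 classes. CpGs at 80% or more averaged 69.5% and 57.6%. In the 95601 tiles with listed CpGs, the tile difference averaged 13.9 points and the Hx difference of the CpGs inside them 13.5 points.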

How the data were processed

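Genomic DNA was cut with MspI and sequenced after bisulfite conversion with or without prior oxidation, per the labels' protocols. Trim Galore, BSMAP, methylKit and build mm9 are named in the submitters' processing notes, with no roles or versions. The authors deposited 1 methylated fraction per 200 bp tile and group, with no coverage, and, for single CpGs, whole percent values per group. Fractions were multiplied to percent and compared as RA-treated minus naive. 5hmC was total methylation minus 5mC. Of the tile table, 4 columns of 5hmC and 4 whose headings name no state or tissue were not used (8 in all).

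Levels were averaged with each tile counting once. Classes have limits of 5, 20, 40, 60 and 80%, windows span 1000000 bp with at least 20 tiles, and a dense tile holds 9 or more CpGs of the CpG table. Named tiles are the 10 largest differences each way among tiles with at least 3 listed CpGs whose total methylation moved the same way by at least 25 points up or 10 points down, 1 per 1000 bp, plus the 5 largest and 5 smallest windows. Members, classes and rules were chosen with earlier results of these data known. A model of read counts, leaving out libraries and a replicate block need values per library and were not run. The gene reference at hand is on another build, so no gene or sequence was assigned. The summaries were tested on simulated data. Coordinates are those of the deposited tiles. Computations used Python 3.11.15, numpy 2.4.6 and pandas 2.3.3.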

Additional observations from a re-analysis of the deposited data

Results flagged for a closer look

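In 790 of the 2466 windows of 1000000 bp, the mean 5mC difference, RA-treated minus naive, had opposite signs in WT and p53-null cells. Each group has 1 pooled value, so none of these differences was tested. On chromosome X, WT differed by 12.0 points and p53-null cells by -2.18 points. From 24 to 34 Mb of X, WT differed by 1.85 points and p53-null cells by -17 points, and over the rest of X, WT by 13.2 and p53-null cells by -0.329 points. In the named window of X from 25000001 to 26000000, WT differed by 0.926 points and p53-null cells by -13.3 points. In X tiles at 20% to 40%, 40% to 60%, 60% to 80% and 80% or more in naive WT total methylation, WT differed by 17.3, 12.4, 7.70 and 6.05 points, and p53-null cells by -1.27, -8.01, -10.3 and -8.28 points. Over all tiles at 60% to 80%, WT differed by 15 points and p53-null cells by -4.77 points, and at 80% or more WT by 9.68 and p53-null cells by -7.63 points. On the autosomes alone, WT differed by 15.2 points and p53-null cells by -4.62 points at 60% to 80%, and at 80% or more WT by 9.79 and p53-null cells by -7.61 points. In the 16 tiles of chromosome Y, the only one with no dense tile, WT differed by 12.5 points and p53-null cells by -0.831 points.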

How the results depend on the processing

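No paired analysis was possible because each group has a single pooled column, and for the same reason no library could be left out. None of the 47 alternative values reversed a direction. Shares cannot fall below 0, so only the mean differences could have reversed. Of the 47, 20 stayed close to the reported one (within 1.26 points, the SD over 20 chromosomes, for means, within 1.5 times for shares). All 214665 tiles hold all 8 values, so the alternatives limited to such tiles repeat the reported values. They count among the 20. With at least 3 CpGs per tile, the mean 5mC difference was 3.78 points, the shares higher and lower by 25 points 6.23% and 0.00327%, the WT excess over p53-null 1.49 points and the 5hmC difference -0.172 points. No density class of such tiles averaged more than 12.2% 5mC after RA. For total methylation in place of 5mC, the mean was 13.2 points, the shares 20.3% and 0.270% and the WT excess 11.6 points. For the Hx columns they were 6.80 points, 12.9% and 0.0890%. Weighting tiles by CpGs gave 6.99 points, and leaving out tiles at 0% or 100% gave 18.5 points. The shares were 58.7% and 3.57% at 10 points, and 4.79% and 0.0634% at 50 points. Without tiles whose 5mC exceeded total methylation by over 10 points, the lower share was 0.241%. Classes from p53-null naive 5mC gave 5.38 points under 5%, 22.6 at 5% to 20%, 17.3 at 60% to 80% and 11.5 at 80% or more. Counting CpGs over the tile and its 2 neighbours gave 22.1, 21.0, 16.1 and 5.64 points for 1, 2, 3 to 4 and 5 to 8 CpGs. Otherwise the cause was not tested. The Hx columns, the tiles without excess 5mC, and all 5hmC alternatives were chosen after seeing the data, as were 2 of those on the WT excess, autosomes only and total methylation. Depth is unknown and limits single tiles most.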

Other observations

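The 5mC difference of WT cells was also set beside the 5hmC estimate of naive p53-null cells, whose columns do not enter it. The estimate is imprecise for single tiles, so its classes are ranges of a noisy value. Among tiles at 40% to 60% in naive WT total methylation, the 10598 tiles with an estimate of 20 points or more were at 62.0% after RA and 37.3% in naive WT cells. The 7609 tiles with an estimate of -10 points or less were at 60.7% and 41.1%. At 20% to 40% the difference was 27.1 points at an estimate of 20 points or more and 22.3 points at -10 points or less. The order was not even in all classes. At 60% to 80% the difference was 19.8 points at 20 points or more, 13.3 points at 0 to 10, 12.3 points at -10 to 0 and 15.4 points at -10 points or less. No test against the spread between libraries was possible here.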
